A study of Homo sapiens with 15 samples.

Results

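The 36 genes described here encode the enzymes of glycolysis, the glucose carriers that feed it and the machinery that passes its product, pyruvate, to lactate or to the mitochondrion. They were listed by gene name, and a gene's value is the mean of the probes annotated to it. Of the 36, 34 had at least 1 probe, among 18334 genes measured in all; the monocarboxylate carrier genes SLC16A1 and SLC16A3 were not analysed here. The cells were K562, an established human line from chronic myeloid leukaemia in blast crisis that can take on erythroid and megakaryocytic features. Valproic acid, a drug against epilepsy and an inhibitor of histone deacetylases, was given at 1 mM and RNA was taken after 2, 6, 10, 48 or 72 h. Each treated sample shared a 2-colour array with untreated K562 cells of the same time, on 15 arrays with 3 at each time, and every replicate number stood for a separate thawing of the cells. Cy5 marked the treated RNA in replicates 1 and 2, and Cy3 in replicate 3.

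Glycolysis splits glucose into pyruvate in the cytosol, with regulated, practically irreversible steps at hexokinase, phosphofructokinase and pyruvate kinase. Most steps are catalysed by several isoenzymes encoded by separate genes. Pyruvate is reduced to lactate by lactate dehydrogenase or enters the mitochondrion, where the pyruvate dehydrogenase complex turns it into acetyl-CoA. The pyruvate dehydrogenase kinases (PDKs) switch that complex off by phosphorylation.

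All values are log2 ratios of treated over untreated cells, so that positive values are higher in treated cells. The ratios hold no level of expression, and in bulk RNA fewer cells of a type and less RNA per cell cannot be told apart. The authors' base was taken as log2, since none was named. A gene was called when limma's p, adjusted over all 18334 genes, was under 0.05. Errors after ± are SEs from limma, and the fitted ratio is adjusted for dye, so it differs from the plain mean of the 3 arrays, by a median of 0.0144 and at most 0.0867 over the 34 genes. The largest gap is that of PDHA1, which at 10 h had a fitted ratio of −0.038 and a plain mean of 0.049. The median SE of the 34 genes at a single time was 0.0714. Without levels the label of the line could not be checked against its markers.

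The response of the pathway was uneven. A few isoenzymes, among them the neuronal-type enolase ENO2, the phosphofructokinases PFKM and PFKP and the kinase PDK2, were higher in treated cells from 6 h onward, the glucose carrier SLC2A1 was first lower and later higher, and the red cell and liver pyruvate kinase PKLR became lower. ENO2, PFKM, PFKP, PDK2 and SLC2A1 were each read from 1 probe, as were PFKFB4, ENO3 and ALDOC, described below. At 2 h 3 of the 34 genes were called, all higher, which is 8.82% beside 6.35% of all genes (4.82% higher and 1.53% lower). The dye-swapped array correlated least with the mean of the others at this time, at 0.535 over genes and −0.0895 over all probes, against 0.305 or more over all probes later. The 3 called genes, ENO2, PFKP and PFKFB4, read 0.46, 0.30 and 0.29 on that array, above 0 as on the others; without it their ratios were 0.49, 0.34 and 0.33 and none was called (adjusted p from 0.121 to 0.231). At 6 h 9 were higher and 2 lower, 32.4% beside 28.7% of all genes (19% higher, 9.66% lower). The counts at 10 h were 10 and 4, 41.2% beside 29.7% (18.1% higher, 11.6% lower). At both late times 21 genes were called, or 61.8%, beside 37.9% of all genes at 48 h (23.3% higher, 14.6% lower) and 35.8% at 72 h (22.1% higher, 13.6% lower). They were divided into 12 higher and 9 lower at 48 h and 17 higher and 4 lower at 72 h. The shares at 2 and 6 h lay near the background, and the late shares above it. That background, here and below, holds all 18334 genes, since dim probes could not be removed. The listed genes were chosen with earlier results of these data known.

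Some markers of blood lineages were called too. Of 9 erythroid markers measured, 0, 0, 1, 2 and 2 were higher and 1, 4, 4, 4 and 2 lower at 2, 6, 10, 48 and 72 h, to be read against the shares of all genes just given; without 48 h replicate 3 none was higher at 48 h, and the single calls at 2 and 10 h were also lost when some arrays were left out. Of 4 megakaryocytic markers, 2 were higher at 48 h (1 without 48 h replicate 3) and 2 at 72 h (1 without any 1 of the 72 h replicates), and the earlier times had no call. Of 7 granulocytic and monocytic markers, 0, 1, 1, 2 and 2 were higher over the 5 times and 1 was lower, at 48 h. Of 3 lymphoid markers 1 was lower at 10 h and 1 higher at 48 h. Both of these lower calls were lost when some arrays were left out, and with 72 h replicate 1 left out 1 granulocytic or monocytic marker was higher at 72 h. By called share in either direction, the erythroid list lay above all genes at each time, and the megakaryocytic list at 48 and 72 h alone. The granulocytic and monocytic list did so at 48 h alone (42.9%, beside 37.9%), and the lymphoid list at 10 h alone (33.3%, beside 29.7%). Both of these shares lay near those of all genes, and that of the lymphoid list rested on 1 marker. These lists are short, with 3 to 9 markers measured. The part of any lineage change in the ratios of the pathway was not tested.

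The sizes were mostly small. The median size among the called genes was 0.40 at 48 h and 0.43 at 72 h, beside 0.34 for all genes called at either time. The median ratio of the 34 genes was 0.017, 0.081, 0.023, −0.014 and 0.16 from 2 to 72 h, beside at most 0.013 for all genes. Over the 5 times, 16 genes were called as higher at 1 time or more and never lower, 10 as lower and never higher, and 1, SLC2A1, in both directions. ENO2, PFKP and PFKFB4 were called as higher at all 5 times (at 2 h with the limit just given), while 7 genes (HK3, GPI, PFKL, PFKFB1, PGAM2, ENO1 and LDHB) did not pass at any time. The 2 h count rested on few arrays: it was 0 without 2 h replicate 1, without 2 h replicate 3 or without replicate 3 at all times, and with the replicate numbers as a block in place of the dye term it was 5. The count of lower genes was 1 at 6 h without 6 h replicate 3, 1 at 10 h without 10 h replicate 3, and 3 at 48 h without 48 h replicate 1 or 48 h replicate 3. Without 10 h replicate 1 the count of higher genes at 10 h was 6.

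**Figure D1:**
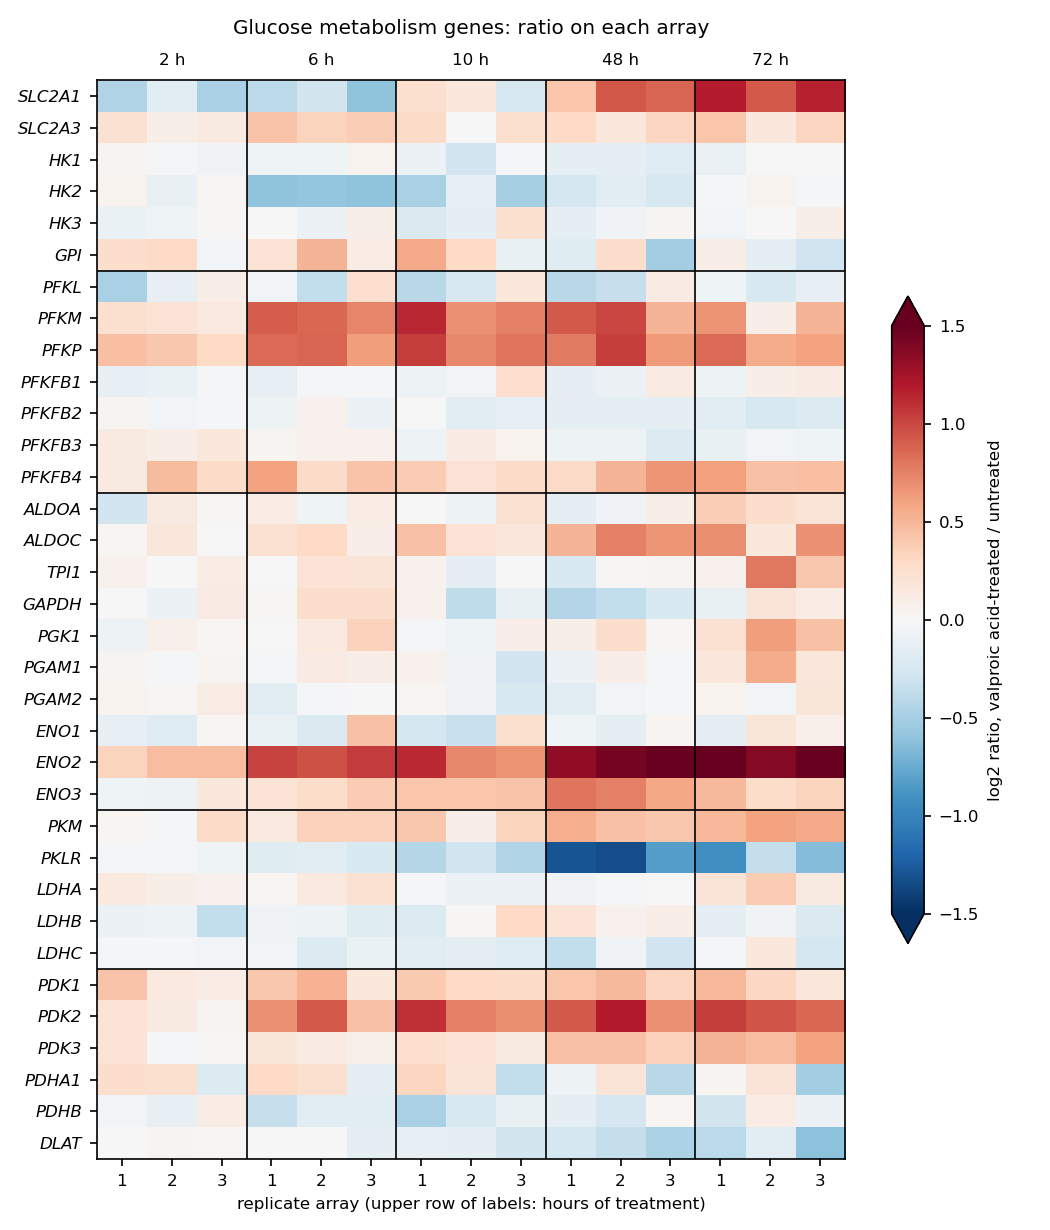
Log2 ratio of treated over untreated cells for the 34 measured genes (rows, grouped by step) on each of the 15 arrays (columns, 3 replicates at each of 5 times); red is higher and blue lower in treated cells, with colours saturating at 1.5. ENO2, PFKM, PFKP and PDK2 are red on all arrays from 6 h, SLC2A1 turns from blue at 2 and 6 h to red at 48 and 72 h, and PKLR is bluest at 48 h.

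The ratio of a glucose carrier gene changed direction during treatment, while glucose entry itself was not measured on these arrays. SLC2A1, the main glucose carrier of red cells and of many tumour cells, had ratios of −0.41, −0.27 and −0.60 on the arrays of replicates 1, 2 and 3 at 6 h. At 72 h they were 1.18, 0.92 and 1.15, so that the arrays of the 2 times did not overlap, and 10 h lay between (0.24, 0.16 and −0.24). The fitted ratio was −0.45 ± 0.11 at 6 h (limma adjusted p = 0.00784), 0.72 ± 0.11 at 48 h (0.000187) and 1.06 ± 0.11 at 72 h (8.1e-06), a 2.09-fold higher level at 72 h. The 2 h ratio of −0.39 did not pass (adjusted p = 0.0567), and the 6 h call ended without 6 h replicate 3. SLC2A1 had 1 probe.

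The other carrier gene, SLC2A3, which encodes a high-affinity glucose carrier best known from neurons, was modestly higher from 6 h. It had 0.43, 0.34 and 0.36 on the 6 h arrays and 0.42, 0.16 and 0.32 on the 72 h arrays. The fitted ratios were 0.38 ± 0.062 (adjusted p = 0.000507) and 0.30 ± 0.062 (0.00181). Its arrays were above 0 at all times. The 10 h call (0.18, adjusted p = 0.0389) was lost under 8 of 26 alternatives, among them without 10 h replicate 1 or 10 h replicate 3, and the 48 h call (0.27) without 48 h replicate 3. With the replicate block beside the dye term its 2 h ratio of 0.16 was also called (adjusted p = 0.04). SLC2A3 and SLC2A14 are nearly identical in sequence, and a probe may bind both; SLC2A14 read 0.74 at 6 h. On all late arrays SLC2A1 lay above SLC2A3, and on all arrays of 2 and 6 h below it.

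Hexokinase traps glucose in the cell as glucose phosphate. HK2, the inducible hexokinase bound to mitochondria, was lower at 6 h with close arrays (−0.61, −0.59 and −0.60; fitted −0.60 ± 0.063, adjusted p = 2.22e-05), at 0.658 of the untreated level. The decrease then faded: the fitted ratio was −0.38 at 10 h (adjusted p = 0.000635) and −0.23 at 48 h (0.0129), and the 72 h arrays of −0.029, 0.052 and −0.034 lay around 0. Both HK2 probes read lower at 6 h (−0.62 and −0.58). The 48 h call was lost without 48 h replicate 1 or 48 h replicate 3.

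HK1, the constitutive hexokinase, was called at 48 h alone (−0.15, adjusted p = 0.0285), and not without any 1 of the 48 h arrays; of its probes, one read −0.33 and the other 0.022 at that time. HK3, a further hexokinase, had fitted ratios between −0.023 and 0.046 and did not pass. GPI, which converts glucose phosphate to fructose phosphate, did not pass at any time either. It had a dye term of 0.20 (adjusted p = 0.00782), with replicates 1 and 2 above replicate 3 at every time, and dye cannot be told apart from the third thawing.

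**Figure D2:**
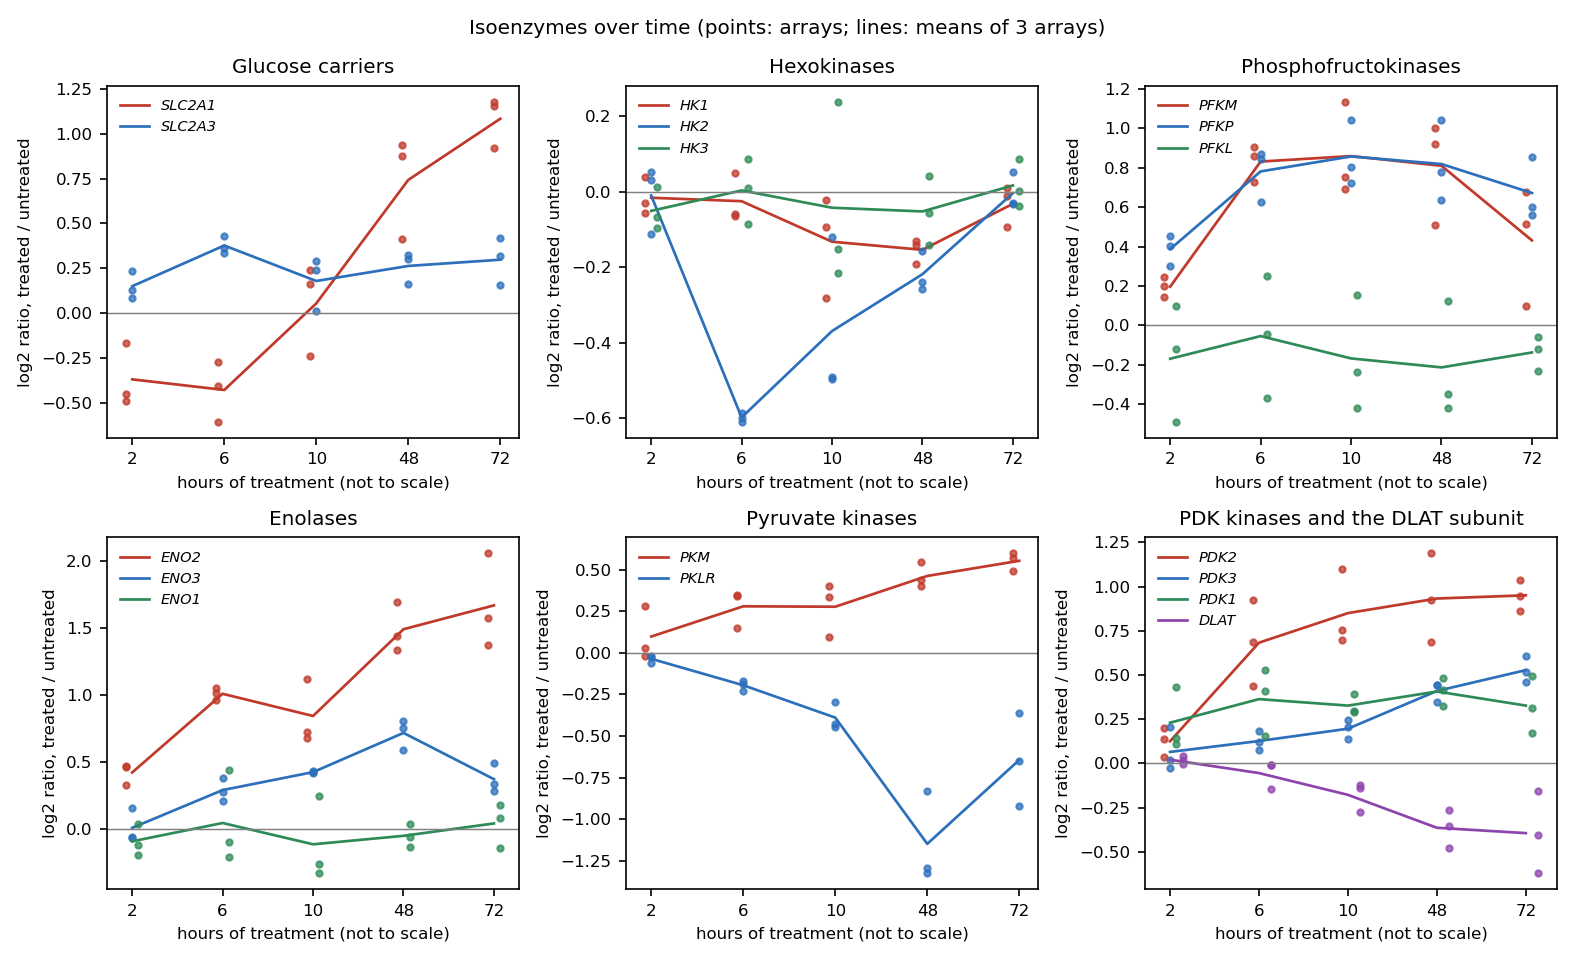
Log2 ratio of treated over untreated cells (vertical axes, with their own scales) against hours of treatment for isoenzymes of 6 steps; points are arrays and lines join the means of 3 arrays. SLC2A1 crosses 0 between 6 and 48 h, HK2 is lowest at 6 h, PFKM and PFKP run together above PFKL, ENO2 lies above ENO3 and ENO1 on all 15 arrays, PKM and PKLR part after 2 h, and PDK2 lies above 0 and DLAT below 0 on the late arrays.

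Phosphofructokinase, the main control point of glycolysis, is a tetramer built from muscle (PFKM), platelet (PFKP) and liver (PFKL) subunits. PFKP was higher at every time, with 0.36 ± 0.070 at 2 h (adjusted p = 0.00793), 0.75 at 6 h, 0.83 at 10 h (3.52e-06), 0.79 at 48 h (2.2e-06) and 0.64 at 72 h. PFKM had 0.81 ± 0.11 at 6 h (0.000125), 0.83 at 10 h, 0.79 at 48 h and 0.41 at 72 h (0.00932). On the 10 h arrays PFKM read 1.13, 0.69 and 0.75. PFKP read 1.04, 0.72 and 0.81 on the same arrays, so that both lay well above 0 on each.

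PFKL did not pass at any time: its fitted ratios lay between −0.15 and 0.0086, although its arrays spread from −0.49 to 0.25 with a dye term of −0.19 (adjusted p = 0.00822). PFKM and PFKP each lay above PFKL on all 15 arrays. Between PFKM and PFKP there was no constant order, PFKM being above on 4 of 15. The 2 h call of PFKP was lost without 2 h replicate 1 or 2 h replicate 3. The 72 h call of PFKM was lost without 72 h replicate 1 or 72 h replicate 3; PFKM had 0.10 on the 72 h array of replicate 2, beside 0.68 and 0.51 on the others.

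The PFKFB enzymes make and break the fructose bisphosphate that activates phosphofructokinase. PFKFB4 alone of the 4 genes was called as higher, at 0.45 ± 0.081 at 6 h (adjusted p = 0.00118), 0.49 at 48 h (0.000375) and 0.51 at 72 h (0.000299), with 0.62, 0.44 and 0.45 on the 72 h arrays. It lay above PFKFB3 and above PFKFB2 on all 15 arrays, though the smallest gap to PFKFB3 was 0.00803. Its 2 h call (0.31, adjusted p = 0.0417) ended without any 1 of the 2 h arrays and was not made with the replicate block beside the dye term (adjusted p = 0.0534). Its 10 h call (0.30) ended without 10 h replicate 1 or 10 h replicate 3.

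PFKFB2, a form best known from heart, was slightly lower at 48 h (−0.14) and at 72 h (−0.21 ± 0.042, adjusted p = 0.00169), and the 48 h call was lost without any 1 of the 48 h arrays. PFKFB3, a form with mostly kinase activity, had −0.12 at 48 h (adjusted p = 0.0472), which was lost under 19 of 26 alternatives. Its 4 probes disagreed at 2 h, from −0.057 to 0.47. PFKFB1, the liver form, had fitted ratios between −0.051 and 0.075.

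The middle of the pathway, from aldolase to phosphoglycerate mutase, is carried by abundant housekeeping enzymes. ALDOA, TPI1, GAPDH, PGK1 and PGAM1 did not pass at 2, 6 or 10 h, where their fitted values lay between −0.12 and 0.20, both of GAPDH. At 72 h all of these but GAPDH were higher. PGK1, which makes the first ATP of the pathway, had 0.44 ± 0.078 (adjusted p = 0.000638), and TPI1, which interconverts the triose phosphates, 0.43 ± 0.10 (0.00487). ALDOA, the aldolase that cleaves the hexose, had 0.29 ± 0.074 (0.00751), and the mutase PGAM1 0.28 ± 0.077 (0.012).

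The 72 h arrays of these genes were spread. PGK1 had 0.23, 0.63 and 0.44, and TPI1 had 0.065, 0.79 and 0.41. PGAM1 had 0.16, 0.56 and 0.17, so that replicate 2, the array with the lowest weight of the 15 when arrays were weighted by their fit, was highest for each of the 3 genes. The call of PGAM1 ended without 72 h replicate 2 and that of ALDOA (0.37, 0.26 and 0.20) without 72 h replicate 1, and TPI1 was not called without replicate 3 at all times (adjusted p = 0.0748). Probes differed as well: for PGAM1 at 72 h one read 0.54 and the other 0.051, while of 13 PGK1 probes one read −0.053 and the highest 0.56. These genes have processed pseudogenes, so probes may bind other RNAs.

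GAPDH, often used as a reference gene, was lower at 48 h (−0.33 ± 0.078, adjusted p = 0.00487), with −0.44, −0.37 and −0.23 on the arrays, and did not pass at the other times. At 72 h its arrays read −0.12, 0.19 and 0.11. Its 10 probes lay between −0.37 and −0.31 at 48 h. ALDOC, the brain-type aldolase, was higher at 48 h (0.51, 0.76 and 0.66 on the arrays; fitted 0.64 ± 0.10, adjusted p = 0.000161) and at 72 h (0.70, 0.16 and 0.69; fitted 0.51, 0.000958). At 10 h its ratio of 0.27 did not pass (0.0505), but was called under 7 of 26 alternatives, among them the replicate numbers as a random block (0.0453). ALDOC lay above ALDOA on all 3 arrays at 48 h and on 11 of 15 in all. PGAM2, the muscle mutase, had fitted ratios between −0.077 and 0.073 and did not pass.

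Enolase makes phosphoenolpyruvate. ENO2, the gamma enolase known as a neuronal and neuroendocrine marker, had 0.33, 0.47 and 0.46 on the 2 h arrays and 1.01, 0.96 and 1.05 on the 6 h arrays. It had 1.33, 1.44 and 1.70 after 48 h and 1.58, 1.37 and 2.06 after 72 h, and lay above 0 on all 15 arrays. The fitted ratio of 1.69 ± 0.10 at 72 h (adjusted p = 1.04e-07) is a 3.23-fold higher level, the largest ratio among the 34 genes at that time. ENO2 lost its 2 h call when any 1 of the 2 h arrays was left out, while its later calls were kept under all 26 alternatives.

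ENO3, the beta enolase of muscle, was higher from 6 h (0.29 ± 0.060, adjusted p = 0.00249) with its highest value at 48 h, where the arrays read 0.80, 0.75 and 0.59 (fitted 0.72 ± 0.060, 1.21e-06). Its 6 h call ended without 6 h replicate 3 (adjusted p = 0.0526). ENO1, the ubiquitous alpha enolase, did not pass at any time and its fitted ratios lay between −0.067 and 0.092, with a dye term of −0.15 (adjusted p = 0.017). ENO2 lay above both on all 15 arrays, by a median of 1.17 over ENO1 and 0.69 over ENO3.

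The promoter windows of ENO2 and ENO1, genes of one step with unlike ratios, are shown with that of SLC2A1, which changed direction, and both windows of PKLR, which had the lowest ratio. Each runs 5′ to 3′ on the gene's strand from 250 bases before to 50 bases after a RefSeq start site (GRCh38.p14). Capitals mark matches on either strand to ACGTG (the core of the site of hypoxia-inducible factors), CACGTG (the E-box of MYC and related factors, which contains ACGTG on both strands) or GGGCGG (the GC box of SP1-type factors).
ENO2, chr12:6914330-6914629, plus strand: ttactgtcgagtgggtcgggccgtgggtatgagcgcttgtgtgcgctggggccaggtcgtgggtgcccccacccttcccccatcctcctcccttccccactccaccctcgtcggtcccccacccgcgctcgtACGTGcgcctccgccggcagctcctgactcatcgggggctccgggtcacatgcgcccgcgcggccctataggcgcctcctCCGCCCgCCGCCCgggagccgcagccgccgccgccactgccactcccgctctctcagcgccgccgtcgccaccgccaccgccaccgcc
ENO1, chr1:8878637-8878936, minus strand: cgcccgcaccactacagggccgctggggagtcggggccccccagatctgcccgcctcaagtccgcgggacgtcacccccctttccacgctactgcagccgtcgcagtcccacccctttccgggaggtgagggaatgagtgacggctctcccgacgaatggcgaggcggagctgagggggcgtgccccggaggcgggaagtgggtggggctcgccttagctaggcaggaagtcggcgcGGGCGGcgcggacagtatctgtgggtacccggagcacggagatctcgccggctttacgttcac
SLC2A1, chr1:42958819-42959118, minus strand: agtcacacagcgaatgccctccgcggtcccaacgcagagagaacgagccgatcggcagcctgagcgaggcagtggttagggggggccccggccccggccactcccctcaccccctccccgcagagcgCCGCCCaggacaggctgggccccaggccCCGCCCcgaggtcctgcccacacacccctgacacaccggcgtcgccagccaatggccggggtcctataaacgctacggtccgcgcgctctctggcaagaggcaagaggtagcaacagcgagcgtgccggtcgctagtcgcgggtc
PKLR, chr1:155301389-155301688, minus strand: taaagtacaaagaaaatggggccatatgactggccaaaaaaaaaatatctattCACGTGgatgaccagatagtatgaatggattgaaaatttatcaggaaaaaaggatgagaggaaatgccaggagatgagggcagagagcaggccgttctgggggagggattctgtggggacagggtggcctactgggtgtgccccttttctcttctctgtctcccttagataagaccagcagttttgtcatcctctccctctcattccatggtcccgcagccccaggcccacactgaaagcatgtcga
PKLR, chr1:155300903-155301202, minus strand: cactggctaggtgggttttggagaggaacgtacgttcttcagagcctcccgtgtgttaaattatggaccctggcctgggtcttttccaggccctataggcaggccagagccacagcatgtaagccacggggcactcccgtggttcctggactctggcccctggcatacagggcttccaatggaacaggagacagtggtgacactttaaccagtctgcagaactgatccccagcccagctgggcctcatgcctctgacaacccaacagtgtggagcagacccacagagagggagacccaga

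The ENO2 window held 1 ACGTG and 2 GC boxes and the ENO1 window 1 GC box. SLC2A1 had 2 GC boxes, and PKLR had 1 CACGTG in its upstream window and no match to the 3 motifs in the other. Windows were found for 32 of the 34 genes, 59 windows in all, since a gene can have several start sites. ACGTG was present in 39.0% of these windows, beside 21.4% of the 35116 windows in the RefSeq table. CACGTG was present in 15.3%, beside 7.3%, and GGGCGG in 61.0%, beside 45.0%. GCGTG, which was not searched, can be read in the printed ENO1 and SLC2A1 windows. A match is a description of letters and shows no binding.

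Pyruvate kinase makes pyruvate and ATP in the last step, and its genes moved in opposite directions. PKM, the form of most tissues and of tumour cells, was higher from 6 h (0.29 ± 0.066, adjusted p = 0.00461) and had 0.49, 0.60 and 0.57 on the 72 h arrays (fitted 0.57 ± 0.066, 2.19e-05). PKLR, which encodes the liver and red cell forms, was lower from 10 h and had −1.29, −1.33 and −0.83 on the 48 h arrays, all below each PKM array.

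The fitted ratio of PKLR was −1.14 ± 0.10 at 48 h (adjusted p = 1.62e-06), or 0.454 of the untreated level, the lowest among the 34 genes at any time, and −0.63 at 72 h (0.000227). Both PKLR probes were lower at 48 h, at −0.95 and −1.35. Its 10 h call of −0.38 ended without 10 h replicate 1 or 10 h replicate 3. The 3 PKM probes read 0.60, 0.56 and 0.23 at 48 h, but differed in sign at 6 h (0.47, 0.42 and −0.051). The 10 h call of PKM (0.29) ended without 10 h replicate 1, and its 6 h call without replicate 2 or replicate 3 at all times.

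Lactate dehydrogenase interconverts pyruvate and lactate. LDHA, the subunit that predominates in glycolytic cells, was called at 72 h alone, with 0.19, 0.38 and 0.14 on the arrays (fitted 0.23 ± 0.050, adjusted p = 0.00234), and not without replicate 2 at all times (adjusted p = 0.0809). Its 3 probes ranged from 0.056 to 0.46 at 72 h, and it too has pseudogenes. On the 72 h arrays one probe read 0.64, 0.78 and −0.039, another −0.17, 0.10 and 0.23, and the third 0.11, 0.24 and 0.22. Replicate 3 was the lowest array of the first probe and the highest of the second at every time. The dye term of the gene, from the mean of its probes, was 0.0045. LDHB, the heart-type subunit, had fitted ratios between −0.18 and 0.12 and did not pass. LDHC, a testis form, was lower at 48 h (−0.25, adjusted p = 0.0103), a call lost without 48 h replicate 1 or 48 h replicate 3.

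Among the genes that govern pyruvate dehydrogenase, the 3 kinases were higher in treated cells and DLAT was lower. PDK2 had 0.69, 0.92 and 0.44 on the 6 h arrays and 1.04, 0.95 and 0.86 on the 72 h arrays. Its fitted ratio was 0.64 ± 0.074 at 6 h (adjusted p = 4.37e-05), 0.89 at 48 h (1.16e-06) and 0.91 at 72 h (1.03e-06), a 1.88-fold higher level at 72 h. At 2 h it was 0.084 and not called. Its dye term was 0.12 (adjusted p = 0.0255), with replicate 3 the lowest of the 3 arrays at each time.

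PDK3 was called from 10 h and had 0.40 ± 0.049 at 48 h (adjusted p = 2.95e-05) and 0.52 at 72 h (3.5e-06), where the arrays read 0.51, 0.46 and 0.61. Of its 3 probes, one read 0.0059 at 72 h and the others 0.65 and 0.93. The 10 h call of PDK3 (0.19) ended without 10 h replicate 1. PDK1, a target of hypoxia-inducible factors, was higher from 6 h, with 0.33, 0.30, 0.38 and 0.30 at 6, 10, 48 and 72 h (largest adjusted p = 0.00218), and its 10 h call ended without 10 h replicate 3 (adjusted p = 0.0545). The PDK1 probes read 0.15 and 0.66 at 48 h, and its dye term was 0.090 (limma adjusted p = 0.0389). PDK2 lay above PDK1 on all 12 arrays from 6 h on. PDK3 lay above PDK1 on 5 of 15 arrays, 3 of them at 72 h.

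DLAT, the acetyltransferase core of the complex, was lower at 48 h (−0.26, −0.35 and −0.48 on the arrays; fitted −0.39 ± 0.055, adjusted p = 9.67e-05) and 72 h (−0.41, −0.15 and −0.62; fitted −0.42, 5.57e-05). All 3 of its probes read below 0 at 48 h, and its dye term was 0.079 (limma adjusted p = 0.0469). Its 10 h value of −0.20 was called, but not when any 1 of the 10 h arrays was left out. PDHB, the beta subunit of the decarboxylase, was called at 10 h alone (−0.25 ± 0.072, adjusted p = 0.0178), and not without 10 h replicate 1 or 10 h replicate 3. With the replicate block beside the dye term its 6 h ratio of −0.20 was also called (adjusted p = 0.0423).

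PDHA1, the alpha subunit that the kinases phosphorylate, was called as lower at 48 h (−0.19) and 72 h (−0.18), but its arrays split by dye. They read 0.041, 0.19 and −0.51 at 72 h, and its dye term of 0.26 (adjusted p = 0.000133) was the largest in size among the 34 genes. Without replicate 3 at all times the ratio was 0.0595 at 48 h and 0.12 at 72 h, neither called, and both calls were also lost with the replicate block in place of the dye term (adjusted p = 0.2 and 0.256). Dye and thawing cannot be told apart in these arrays.

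Whether a gene's response differed between late and early times was tested as the average ratio of the 48 and 72 h samples less that of the 3 earlier times. Of the 34 genes, 15 passed, 9 with a higher late ratio and 6 with a lower one, or 44.1% beside 25.9% of all genes (14.9% higher, 11% lower). SLC2A1 had the largest difference (1.16 ± 0.10, adjusted p = 3.64e-06), followed by ENO2 (0.82 ± 0.095, 4.22e-05). ALDOC (0.40), PDK2 (0.39), PDK3 (0.34), ENO3 (0.30), PKM (0.29), HK2 (0.21) and PGK1 (0.21) completed the higher ones; for HK2 this difference is a return towards 0. PKLR was lowest (−0.69 ± 0.088, 9.88e-05), with GPI (−0.36), DLAT (−0.31), PDHA1 (−0.19), PFKFB3 (−0.17) and PFKFB2 (−0.13) also lower.

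PFKM (−0.0083 ± 0.10) and PFKP (0.070 ± 0.064) did not pass this contrast. In limma's moderated F test of each later time against 2 h, 15 of the 34 genes passed (44.1%, beside 23.3% of all genes), of which 11 also passed the late minus early contrast. PFKM (adjusted p = 0.0149), PFKP (0.0178), GAPDH (0.0217) and LDHA (0.0308) passed the F test alone. Without replicate 3 at all times, which removes the dye swap, 6 genes had a higher and 2 a lower late ratio and 5 passed the F test; without 2 h replicate 1 the F test called 9. The difference for PGK1 was lost under 18 of 26 alternatives and that for PFKFB2 under 11. Those for HK2 (without replicate 1 or replicate 3 at all times), PFKFB3 (without replicate 2 or replicate 3), ALDOC and GPI (without replicate 3) and PDHA1 (without replicate 1 or replicate 3) were also lost, and that for PKM when arrays were scaled (adjusted p = 0.12).

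**Figure D3:**
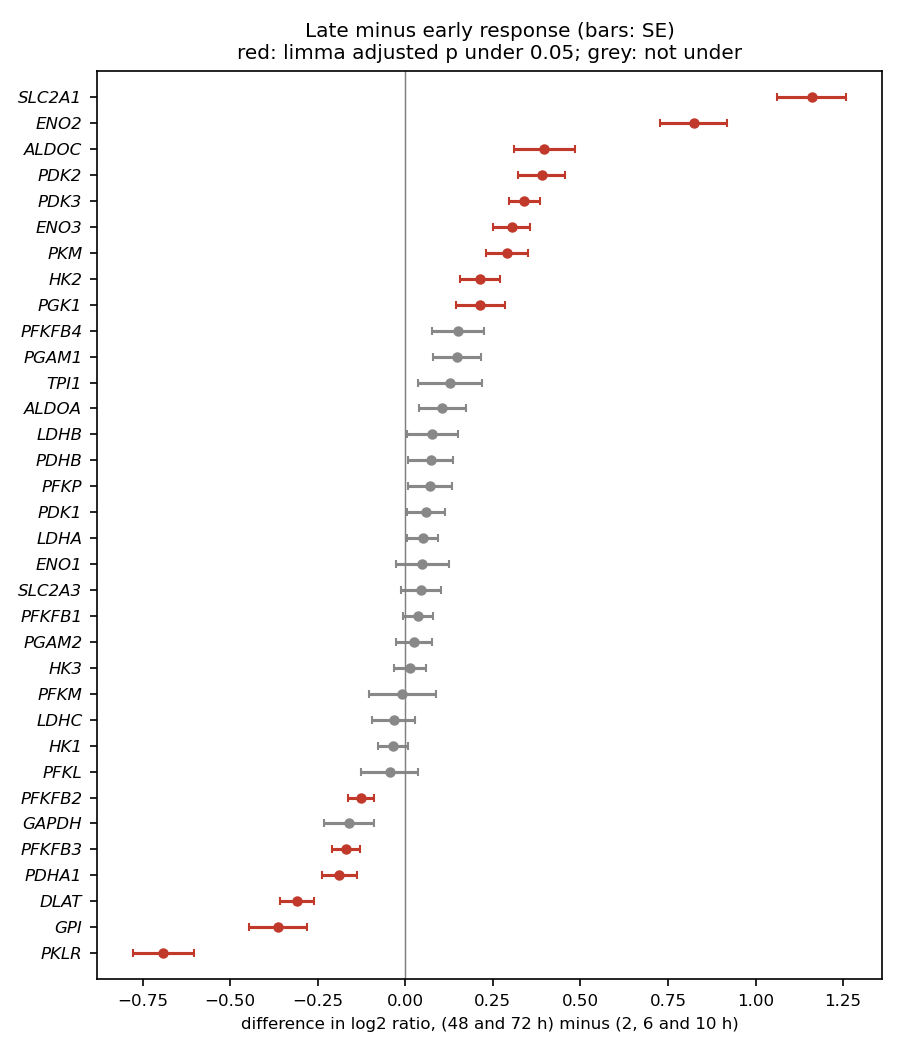
Difference between the mean log2 ratio at the 2 late times and that at the 3 early times (horizontal axis; bars are SEs from limma) for the 34 genes, ordered by value; red marks adjusted p under 0.05. SLC2A1 and ENO2 stand at the upper end and PKLR at the lower end.

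Genes next to the pathway were read from 8 further lists, whose counts stand against the same shares of all genes given above. Called shares at 48 h were 27.8% for carriers, 28.6% for glycogen and 30% for pentose phosphate genes, under the 37.9% of all genes. They were 41.2% for other glycolytic genes, near that background, and 46.2% for the citric acid cycle. Regulators had 55%, targets of hypoxia-inducible factors 60% and genes of pyruvate entry 62.5%. Every count of 1 given for a list below was 0 when some array, or a replicate at all times, was left out. Of 8 further genes of pyruvate entry, 4 were higher and 1 lower at 48 h. MPC2, a subunit of the mitochondrial pyruvate carrier, had a ratio of 1.28 ± 0.082 at 48 h (adjusted p = 1.25e-07) and 1.48 at 72 h (4.18e-08), with arrays from 0.91 to 1.52 and from 1.31 to 1.68. Its partner MPC1 had 0.34 at 48 h and 0.50 at 72 h with arrays from 0.10 to 1.10 at 72 h. MPC1 had a dye term of 0.36 (adjusted p = 0.000433), larger than that of PDHA1, with replicate 3 the lowest array at every time. Both calls were lost without the dye term and the 48 h call also without 48 h replicate 2 or 48 h replicate 3; over the alternatives the 48 h ratio ran from 0.21 to 0.66. With the replicate block in place of the dye term MPC1 was also called at 6 h (0.31, adjusted p = 0.0275) and at 10 h (0.38, 0.00896). PDK4, the starvation-induced kinase, was higher at 48 h (0.52, adjusted p = 5.11e-05) and 72 h (0.60), as was PDP1, a phosphatase that opposes the kinases (0.62 at 48 h, adjusted p = 4e-04). DLD, the lipoamide dehydrogenase of the complex, had 0.21 at 6 h, lost without 6 h replicate 2 or 6 h replicate 3. At 72 h DLD was lower (−0.26, adjusted p = 0.0101). That call was lost without 72 h replicate 3 and without replicate 2 or replicate 3 at all times.

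Of 17 other glycolytic and gluconeogenic genes, 4 were higher and 3 lower at 48 h. PCK2, the mitochondrial phosphoenolpyruvate carboxykinase, did not pass up to 10 h and had −0.93 ± 0.064 at 48 h (adjusted p = 2.33e-07) and −0.83 at 72 h, with 48 h arrays from −1.01 to −0.89. BPGM, the red cell enzyme that makes the regulator of haemoglobin's oxygen affinity, was higher from 6 h (0.50, adjusted p = 0.000225) to 72 h (0.56, 5.22e-05). LDHD, which oxidises D-lactate in mitochondria, had 0.61 at 48 h (0.000223). PGM2, a phosphopentomutase, had 0.39 at 6 h (5.4e-05). Among 18 further glucose and monocarboxylate carriers, 5 were higher and none lower at 48 h, and 2 were higher without 48 h replicate 3. The 5 included SLC2A14 (0.53, adjusted p = 0.00622, lost without 48 h replicate 3), SLC16A5, a monocarboxylate carrier (0.52, 0.000113), and SLC2A12 (0.26, lost without replicate 2 at all times). SLC2A8, an intracellular sugar carrier, had 0.41 at 6 h (0.00191).

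In the citric acid cycle 5 of 13 genes were lower and 1 higher at 48 h, and 6 lower and none higher at 72 h. They included CS, the citrate synthase (−0.43 at 48 h, adjusted p = 5.28e-05), and the isocitrate dehydrogenase subunits IDH3B (−0.39) and IDH3G (−0.33). OGDH, of the oxoglutarate dehydrogenase complex, had −0.23 at 6 h, a call lost without 6 h replicate 2. SDHD, of succinate dehydrogenase, had −0.15 at 6 h, lost under 17 of 26 alternatives. Its 10 h ratio of −0.24 (0.00421) was called under all 26. The median of that list was −0.16 at 48 h, beside 0.006 for all genes. Of 10 pentose phosphate genes 2 were lower and 1 higher at 48 h, and 4 were lower and 1 higher at 72 h (2 lower without 72 h replicate 3). RPIA, which isomerises ribose phosphate, was lower from 6 h (−0.58, adjusted p = 2.66e-05) to 72 h (−0.76, 1.16e-06). The other lower gene at 48 h was PGD, a dehydrogenase of the oxidative branch (−0.36, 0.000348). The higher gene was PRPS1, which makes the ribose donor of nucleotides (0.20 at 48 h and 0.22 at 72 h), and its dye term was −0.18 (0.000771); these calls were lost without the dye term and, at 48 h, under 8 of 26 alternatives. RPE, a ribulose phosphate epimerase, had −0.24 at 6 h (0.000532).

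In glycogen metabolism 2 of 14 genes were higher and 2 lower at 48 h, with 1 higher or 1 lower when some arrays were left out. PYGL, the liver glycogen phosphorylase, had the largest ratio of the list, 1.20 ± 0.18 at 48 h (adjusted p = 0.000145), a 2.3-fold higher level that was called under all 26 alternatives. Its 48 h arrays all read 1.17, while at 72 h they spread from −0.51 to 0.79 and the ratio did not pass (0.37), though it did without 72 h replicate 2. At 10 h it was called (0.67, 0.0114), but not without 10 h replicate 1 or 10 h replicate 3. GYS1, the muscle glycogen synthase, had 0.60 at 6 h (3.53e-05), and PHKA2, a phosphorylase kinase subunit, 0.37 (0.00169). PHKA1, another such subunit, had −0.20 at 48 h, lost without 48 h replicate 3. GBE1, the branching enzyme, had −0.61 at 6 h (adjusted p = 0.00014) and 0.39 at 72 h (0.00222). GYG1, which primes glycogen, was lower at 48 h (−0.44, 6.96e-06) and 72 h (−0.58).

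Of 20 regulators of glycolytic genes, 8 were higher and 3 lower at 48 h, with 5 higher without replicate 1 at all times and 0 lower without 48 h replicate 3. ARRDC4 and TXNIP, related arrestin-like proteins that restrain glucose uptake, were both higher late. ARRDC4 had 1.41 at 48 h (adjusted p = 7.54e-06) and 1.91 at 72 h (6.12e-07), and TXNIP had 0.31 (6.88e-05) and 0.57 (3.99e-07). MLXIPL, a glucose-responsive factor, had 0.53 at 48 h, not called with the median of its probes (adjusted p = 0.267). EPAS1, a hypoxia-inducible factor subunit, had 0.46 (0.00296), and EGLN3, a prolyl hydroxylase, 0.34 at 6 h, lost without 6 h replicate 2 or 6 h replicate 3. At 72 h EGLN3 had 0.58 (0.000576), called under all 26 alternatives. HIF1A, the oxygen-regulated factor that drives many glycolytic genes, did not pass at any time, with fitted ratios between −0.059 and 0.11, which bear on its RNA alone. Its dye term was 0.17 (adjusted p = 0.000491). Replicates 1 and 2 read above 0 at every time, and replicate 3 was the lowest array at each. HIF1A was called at 2 h with scaled arrays and with array weights. MYC, a factor that also drives glycolytic genes, was lower at 2 h (−0.92 ± 0.11, adjusted p = 0.000315) and at 72 h (−0.51, 0.00341).

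Of 15 targets of hypoxia-inducible factors outside glycolysis, 9 were higher and 1 lower at 6 h and 8 higher and 1 lower at 48 h, with list medians of 0.36 and 0.263, beside 0.009 and 0.006 for all genes. They included NDRG1 (1.01 at 48 h, adjusted p = 4.12e-07), the mitophagy receptor BNIP3L (1.41, 3.4e-05) and ANGPTL4, a secreted lipase inhibitor (1.46, 8.71e-05). MXI1, a MYC antagonist, had 0.77 at 6 h (0.00076). At 6 h, 6 were higher without 6 h replicate 2 or 6 h replicate 3.

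**Figure D4:**
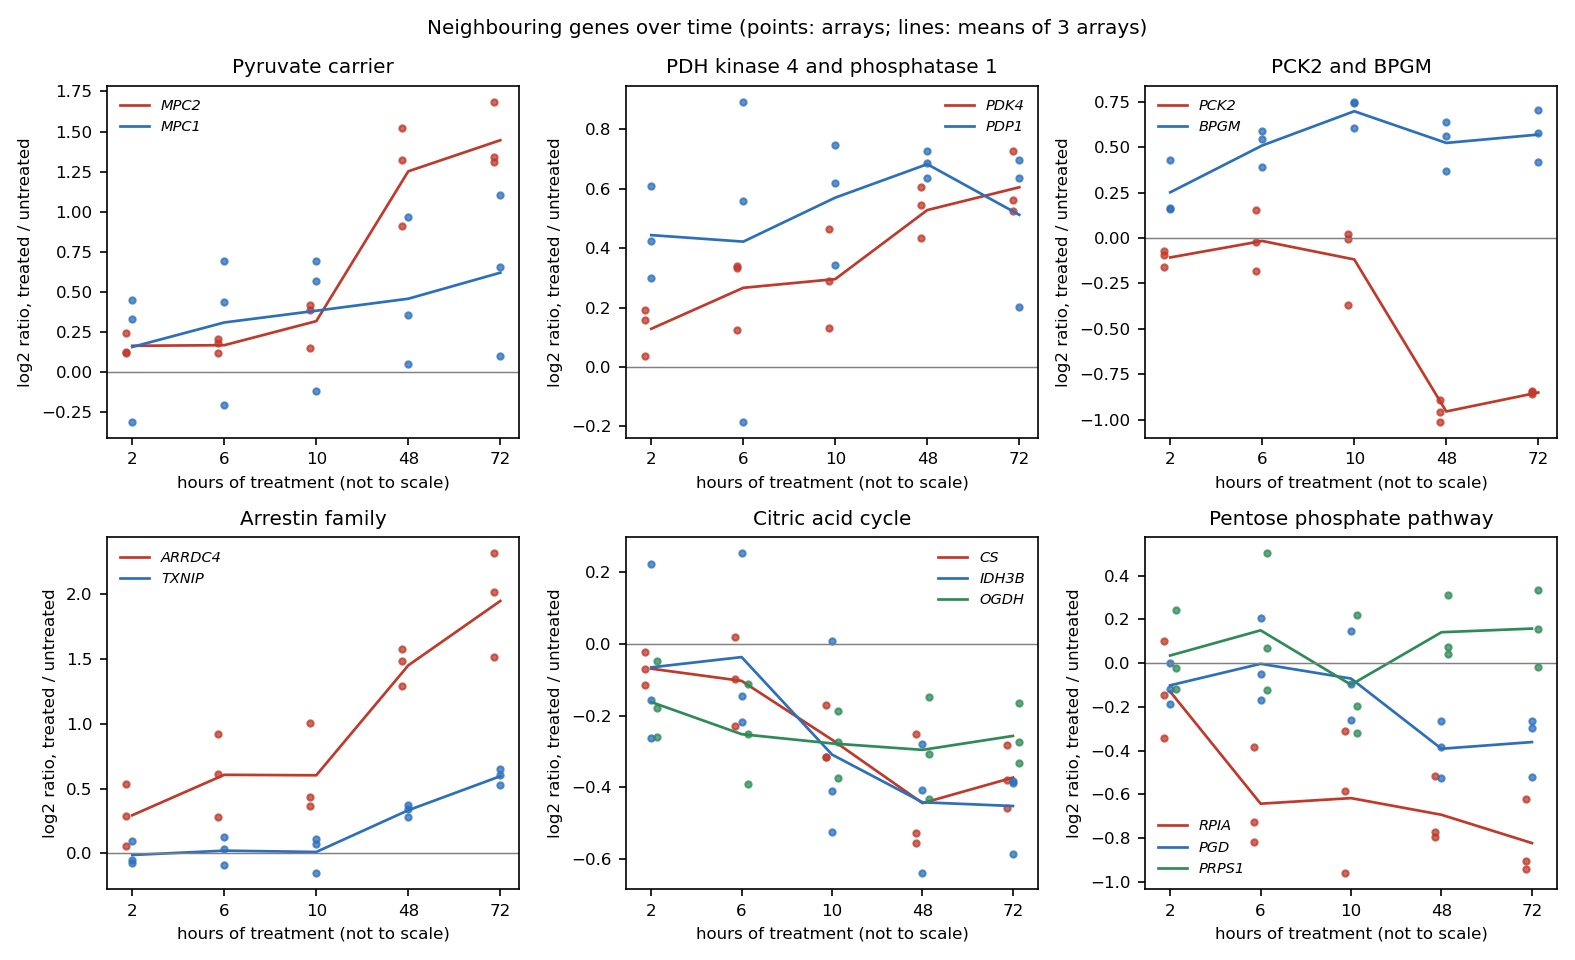
Log2 ratio of treated over untreated cells (vertical axes, with their own scales) against hours of treatment for genes next to the pathway; points are arrays and lines join the means of 3 arrays. MPC2 and ARRDC4 are highest at 72 h, PCK2 drops between 10 and 48 h, and CS, IDH3B, OGDH, RPIA and PGD lie below 0 on all late arrays.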

How the data were processed

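RNA of treated and untreated K562 cells was compared on 2-colour arrays. The deposited table holds 1 log2 ratio (base assumed) per probe and array for 45220 probes, with no missing value. The submitters' processing notes name limma, and its version, the background correction and the normalization are not given in the sources used here. Replicate 3, the dye swap, correlated with the mean of replicates 1 and 2 over genes at 0.535 at 2 h and between 0.674 and 0.827 later, and was used as deposited (over all probes at 2 h the correlation was −0.0895). Of the probes, 31332 had 1 gene symbol, 93 several and 13795 none; symbols were updated through gene identifiers. The 34 genes had 78 probes, and 15 of them a single one.

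A limma model (limma 3.58.1 in R 4.3.3, lmFit and eBayes) held a mean for each of the 5 times plus dye, with 9 residual and 3.47 prior degrees of freedom, and Benjamini-Hochberg adjustment ran over all genes. The dye term passed for 3693 genes, 9 of the 34 among them. Same-numbered replicates share a thawing per the labels; before dye was fitted, their residuals correlated on average at 0.183, 0.153 and 0.525 (replicates 1, 2 and 3). Intensities were not used here, so dim probes could not be removed. Weights by fit ran from 0.392 to 2.74 over the arrays. On simulated data with 200 of 18334 genes changed at 48 h, 57.4% of changes of 0.3, 85.8% of 0.5 and 99.2% of 1 were recovered, with 5.65% of calls false. The simulated noise was independent between arrays apart from dye, and far fewer genes changed than the 37.9% called at 48 h. These rates may therefore not hold for the data. Members, lists and the rule for named genes (all members, up to 3 called genes with the largest ratios of each further list at 48 h and at 6 h with 1 sign on 3 of 3 arrays, and a fixed few) were chosen with earlier results of these data known. Alternatives were no dye term, a replicate block, scaling, centring, array weights, probe medians and left-out arrays.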

Additional observations from a re-analysis of the deposited data

Results flagged for a closer look

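Each of these genes had a response that differed between times by a test of the difference itself. The late minus early difference on the log2 scale was 1.16 for SLC2A1, 0.21 for HK2, −0.36 for GPI, −0.13 for PFKFB2, −0.17 for PFKFB3, 0.40 for ALDOC, 0.21 for PGK1, 0.82 for ENO2, 0.30 for ENO3, 0.29 for PKM, −0.69 for PKLR, 0.39 for PDK2, 0.34 for PDK3, −0.19 for PDHA1 and −0.31 for DLAT. PFKM, PFKP, GAPDH and LDHA differed between times by the F test alone, with limma adjusted p = 0.0149, 0.0178, 0.0217 and 0.0308. SLC2A1 was the 1 gene of the 34 called as lower at 1 time and as higher at another. For GPI and PDHA1 the arrays also split by dye orientation, and their differences were not called without the dye term or without replicate 3.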

How the results depend on the processing

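In 26 alternative fits the counts of higher genes at 48 h (11 to 12, against 12) and 72 h (15 to 17, against 17) moved little. The 2 h count of higher genes, 3, was 5 with the replicate block in place of the dye term, 7 with scaled arrays, 6 with array weights and 0 to 3 with arrays left out; the count of lower genes, 0, was 2 with scaled arrays and with array weights and 0 to 1 with arrays left out. Over all genes the 2 h count of higher ones was 884, against 2553 with scaled arrays and 2230 with array weights, and that of lower ones 281, against 1322 and 1023. Without the dye term, all genes with a lower late ratio numbered 1331, against 2023, and those passing the F test 2838, against 4277. With arrays left out, 8 to 12 genes were higher and 1 to 3 lower at 6 h, 6 to 11 and 1 to 5 at 10 h, 3 to 9 lower at 48 h, and 3 to 5 lower at 72 h. Lower genes numbered 7 at 10 h with arrays centred and 5 at 48 h with arrays scaled. With arrays left out, late minus early gave 6 to 9 higher and 2 to 7 lower genes, and the F test 5 to 16. Without replicate 3 PDHA1 changed sign at 10, 48 and 72 h, and PRPS1 at 6 h; the cause was not tested. With arrays left out PDHA1 ranged from −0.0887 to 0.26 at 10 h, −0.24 to 0.0595 at 48 h and −0.23 to 0.12 at 72 h, and PRPS1 from −0.0261 to 0.29 at 6 h. Of calls made with all arrays, 14 of 21 at 48 h and 15 of 21 at 72 h held under all 26 alternatives, 8 of 11 at 6 h, 6 of 14 at 10 h and 0 of 3 at 2 h. With the replicate block in place of the dye term, PDK1 at 2 h (adjusted p = 0.0315) and GPI at 6 h (0.0448) were also called; beyond the changes given above, the block as a fixed term moved no other call of the 34 genes at a single time. As a random term it ended SLC2A3 at 10 h (0.0524) and the late minus early call of PGK1 (0.0519) and added ALDOC at 10 h (0.0453). Only 3 arrays a time and unknown signal over background limit the precision.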
